A study of Arabidopsis thaliana with 10 samples.

Results

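RNA of detached Arabidopsis thaliana leaves was compared between all 4 libraries whose count files name a dark incubation and all 6 whose count files name the start of the experiment, which together are the 10 libraries of the series. The members were chosen from the name inside each deposited count file. Files naming D3 (day 3) are called dark libraries here, and files naming D0 (day 0) are called light libraries. The dark side holds Ran-G22V-D3 and Ran-T27N-D3, and the light side holds Col-D0, Ran-G22V-D0 and Ran-T27N-D0, each as Set1 and Set2. Sample titles and file names disagree for 8 of the 10 libraries, and only the Col pair has the same name in both. The pair named Ran-G22V-D0 in its files is titled RanT27N D0, Ran-G22V-D3 is titled RanG22V D0, Ran-T27N-D0 is titled RanT27N D3, and Ran-T27N-D3 is titled RanG22V D3. Every direction below therefore rests on the names in the files.

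Col is the wild type, and the other lines are transgenic and overexpress a form of Ran, the small GTPase that gives nuclear transport its direction. The labels name the overexpressed forms by their nucleotide, GDP or GTP. The labels used here do not give the promoter of the transgene or the number of independent lines. Plants were 4 weeks old and were raised at 22 °C under days of 16 h light and nights of 8 h, and the fifth and the sixth leaf were taken. Leaves for day 3 had spent 3 days in darkness after detachment, so darkness, detachment and time cannot be told apart. There was no dark wild-type library, so all 4 dark libraries come from transgenic lines. Nothing in the labels says that Set1 and Set2 came from separate plants, and p-values then reflect only how these libraries vary, which may be technical.

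A leaf kept in darkness cannot fix carbon. It is known to use up its starch within about a night and then to draw on lipids and on the amino acids of its own proteins, whose carbon enters peroxisomal beta-oxidation and mitochondrial respiration. Leaf cells sense the shortage through the kinase SnRK1, which raises catabolic genes and lowers those of growth. Detached leaves in darkness also age quickly, and losses of photosynthesis transcripts and gains of senescence transcripts are its best known signs. The results below are about what else all 4 dark libraries had in common.

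Total counts ran from 14187505 to 24496672 per library. Ribosomal RNA took 8.19% of the counts in Ran-G22V-D3 Set2 and 16.78% to 24.54% in the other 9. Counts of chloroplast and mitochondrial genes made up 1.35% to 3.19% of the dark libraries and 3.28% to 5.35% of the light ones, and the part of this in the results was not tested. The first principal component, with 48.9% of the variance, placed the dark libraries at 83.1 to 170.7 and the light ones at -110 to -50.4. RAN1 did not separate the sides, at 851 to 1263 CPM (a gene's share of its library's counts, scaled) in darkness and 257 to 1518 CPM in light. The labels do not say whether counts at RAN genes include the transgene, and the Ran copies are much alike. RAN4 was below the filter on low counts. As checks of the file names, the senescence protease gene SAG12 ran from 139 to 756 CPM in the dark libraries against at most 1.22 CPM in light, and the Rubisco gene RBCS1A from 78.3 to 509.6 CPM against 2581 CPM or more. LHCB1.1, a light-harvesting gene, was at 19.8 to 153.3 CPM in darkness. In light it was at 21.3, 76.0 and 102 CPM in Set1 and at 963, 2763 and 964.5 CPM in Set2 of Col, Ran-G22V and Ran-T27N, so Set1 overlapped the dark libraries and Set2 did not. The actin gene ACT2 also overlapped, at 234 to 427 CPM against 237 to 461 CPM.

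Of 21475 genes tested, 3234 were higher and 3778 lower in the dark libraries in edgeR's quasi-likelihood test at an adjusted p below 0.05. A gene is called common to darkness here when it passed that test and when, in scaled CPM, no dark library overlapped any light library. There were 1814 such genes above the light libraries (8.45% of genes tested) and 2291 below them (10.7%). The other 1420 higher and 1487 lower calls had at least 1 library that crossed over. Most separations were narrow. Gaps are given as folds after 0.5 CPM was added to both sides. In 348 of the common higher genes the lowest dark library stood at least 2-fold above the highest light library, and in 601 of the common lower genes the gap was at least 2-fold. At least 8-fold gaps were found in 35 and 53 genes. Grouping the same libraries by day in their titles gave 18 higher and 59 lower genes (0.0838% and 0.275%). No shared gene without overlap is possible between the groupings, because each title group holds both dark and light libraries by file name.

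Next to SAG12, the widest gaps on the higher side were those of OSM34 and TH8. OSM34, which encodes osmotin, a small antifungal protein of stressed tissue, was at 287 and 441 CPM in the Ran-G22V dark libraries and 116 and 153 CPM in the Ran-T27N ones. The 6 light libraries had 0 to 1.098 CPM with a median of 0.394, and the gap was 72.7-fold with 0.5 CPM added to both sides. TH8, a thioredoxin gene, was at 140 and 231 CPM and at 122 and 151 CPM in the same order, against 0 to 1.26 CPM. Its log2 fold change of 8.17 ± 0.77 (SE) had an adjusted p of 0.000104 in edgeR's test.

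Glyoxalase I enzymes detoxify methylglyoxal, a by-product of sugar breakdown, and 2 genes annotated to that family were among the 12 widest gaps on the higher side. GLYI7 stood at 1218, 1119, 218 and 150 CPM in the dark libraries and 0.336 to 3.20 CPM in light. AT1G80165, which lies across GLYI7 on the opposite strand, followed it at 45.7 to 237 CPM against at most 0.8286 CPM. The sources used here do not say how strand was treated in counting, so reads of this pair cannot be told apart. GLYI4 was at 3625 and 2533 CPM in the Ran-G22V dark libraries and at 83.8 and 82.6 CPM in the Ran-T27N ones, against at most 1.90 CPM in light. All 4 dark libraries were thus above all light libraries for both genes, with the Ran-G22V pair the higher one.

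KTI1, a Kunitz trypsin inhibitor that limits proteases and cell death, was at 2621 and 3775 CPM in Ran-G22V and at 156 and 258 CPM in Ran-T27N, against at most 5.36 CPM in light. NIT2, a nitrilase, had the same shape, with 2971, 3601, 228 and 142 CPM against at most 6.61 CPM. CHAT, which makes the leaf volatile hexenyl acetate, was nearly level among the dark libraries at 50.5 to 95.4 CPM and had at most 1.40 CPM in light. The late embryogenesis abundant protein gene AT2G03850, the receptor-like protein gene RLP22 and AT5G02580, annotated as an argininosuccinate lyase, complete the higher group with 17.7 to 84.2, 17.95 to 112 and 74.3 to 203 CPM. Their light libraries reached at most 0.0561, 0.231 and 3.24 CPM. RLP22 overlaps AT2G08535 on the opposite strand.

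On the lower side the widest gaps included FNR2, FBA5, CA1 and NdhM, which serve photosynthesis, and 8 genes that mostly do not. SHM1, the mitochondrial serine hydroxymethyltransferase of photorespiration, had 8.26, 3.26, 5.61 and 5.09 CPM in the dark libraries and 305 to 513 CPM in light. LrgB, which encodes a glycolate transporter of the chloroplast envelope, had 0.528 to 1.42 CPM against 60.2 to 94.3 CPM. PCC1, named for its control by pathogens and the clock, had 1.32 to 4.12 CPM against 145 to 582 CPM.

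AOC2, an allene oxide cyclase of jasmonate synthesis, was at 8.26, 5.60, 30.5 and 9.32 CPM in darkness and at 630.5 to 1624 CPM in light (edgeR's log2 fold change -6.37 ± 0.51 SE, with adjusted p 5.25e-05). The MATE transporter gene AT5G44050 was at 0 to 0.183 CPM against 15.0 to 70.6 CPM. AT2G47880, a glutaredoxin gene, had at most 2.19 CPM in darkness and at least 51.4 CPM in light. RL4, a small MYB-like gene, fell to 0.0660 to 1.28 CPM from 28.2 to 56.9 CPM, and AT4G01380, a plastocyanin-like gene, to at most 0.527 CPM from 14.2 to 47.1 CPM. AT2G47880 and AT4G01380 each overlap another gene on the opposite strand. In these 12 genes the gap was at least 14.3-fold with 0.5 CPM added to both sides.

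**Figure D1:**
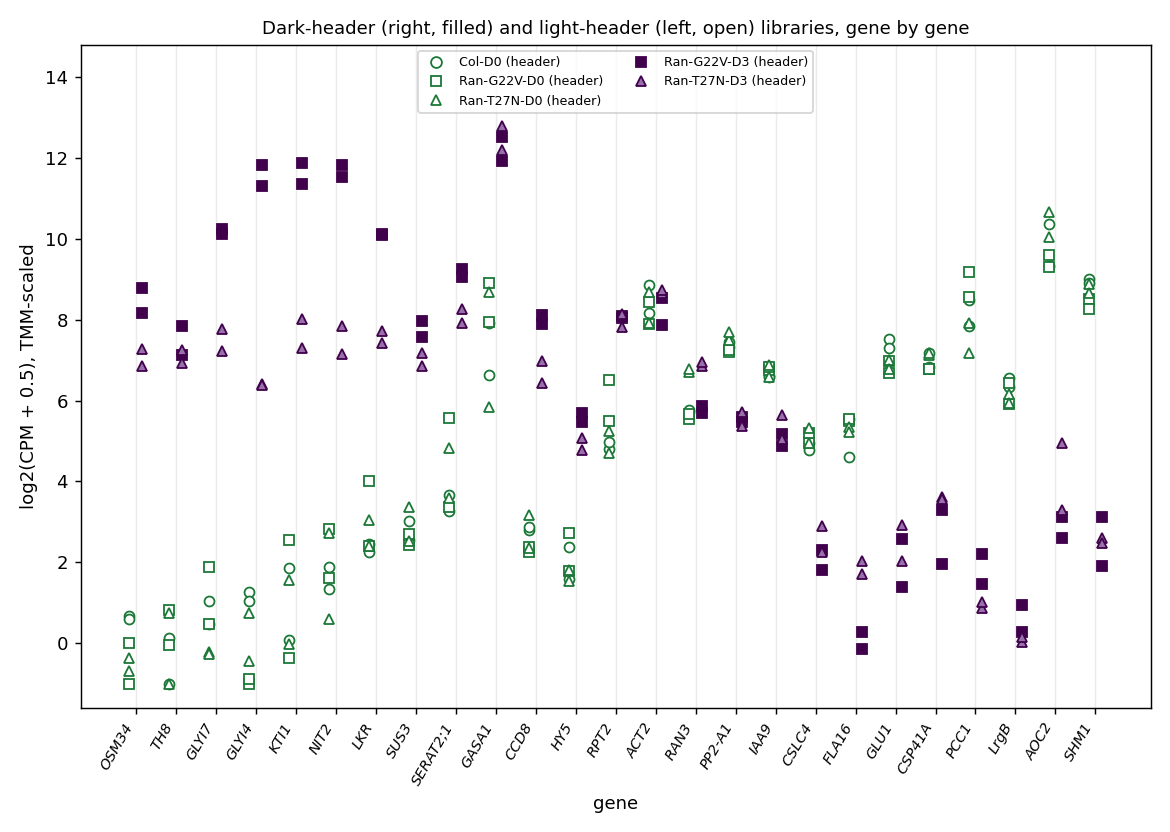
Level of 25 genes in each of the 10 libraries, as log2(CPM + 0.5) on the vertical axis, with open green symbols for the 6 light libraries and filled purple symbols for the 4 dark ones (circles Col, squares Ran-G22V, triangles Ran-T27N, all by file header). The sides separate for every gene but ACT2, at 234 to 427 CPM against 237 to 461 CPM, and RAN3, at 50.8 to 123.8 CPM against 46.4 to 108.7 CPM.

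Genes that break down fatty acids were among those that rose. Of 23 tested genes of beta-oxidation and the glyoxylate cycle, 11 were higher without overlap (47.8%, against 8.45% of all genes). Another 1 was lower (4.35%, against 10.7%), and the median log2 fold change was 0.98 against 0.02 over all genes. The list's median was 1.74 in Ran-G22V and 0.29 in Ran-T27N. The glyoxylate cycle genes ICL and MLS were on the list but not among those tested. ACX4, an acyl-CoA oxidase that takes short chains into beta-oxidation, was at 805 and 875 CPM in the Ran-G22V dark libraries and 209 and 174 CPM in the Ran-T27N ones, against 57.1 to 72.5 CPM in light. ACX2, the oxidase for long chains, was at 229, 231, 44.2 and 48.4 CPM against 14.7 to 20.9 CPM. Both genes were above every light library in both lines. The change did not differ between lines at the threshold in edgeR's test (adjusted p = 0.065 for ACX2 and 0.104 for ACX4).

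Several genes of later steps were higher too. MFP2, the multifunctional hydratase and dehydrogenase, was at 104 to 259 CPM against 37.6 to 50.9 CPM, and PKT3, the thiolase that ends each cycle, at 369.5 to 1301 CPM against 115 to 201 CPM. SDP1, the lipase that opens oil bodies, was at 27.2 to 122 CPM against 9.51 to 20.8 CPM. CSY3, a peroxisomal citrate synthase that lets acetyl units leave the organelle, was at 115 to 307 CPM against 35.8 to 76.2 CPM. The 1 lower member was PMDH2, a peroxisomal malate dehydrogenase known for its part in photorespiration as well, at 2.87 to 28.5 CPM against 201 to 421 CPM. KAT5, a thiolase like PKT3, also passed the test downward, with overlap, at 26.2 to 54.2 CPM against 48.5 to 115 CPM. Of 21 genes of peroxisome biogenesis, 3 were higher (14.3%, against 8.45% of all genes) and 1 lower (4.76%, against 10.7%). They were the proliferation genes PEX11A and PEX11E and the import gene PEX13 on one side, and DRP5B, which divides chloroplasts and peroxisomes, on the other. PEX13 lost its call without Ran-G22V-D3 Set1 and without Ran-T27N-D3 Set1. All of the PEX genes named overlap a neighbour on the opposite strand.

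Amino acid breakdown outside the branched-chain pathway was another catabolic group with higher members. Of 27 members, 11 were higher without overlap (40.7%, against 8.45% of all genes) and 0 lower (against 10.7%). The median log2 fold change was 1.41. LKR, the bifunctional first enzyme of lysine breakdown (LKR/SDH), was at 1094, 1106, 211 and 172 CPM in the dark libraries and 4.25 to 15.5 CPM in light. Its log2 fold change was 6.11 ± 0.37 (SE), with an edgeR adjusted p of 1.54e-05. The gap between the lowest dark and the highest light library of LKR was 10.8-fold with 0.5 CPM added to both sides.

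Tyrosine breakdown had 3 steps in the higher group. Its genes MAAI and FAH passed the test upward with overlap, at log2 fold changes of 1.96 and 0.60. TAT7, a tyrosine aminotransferase, was at 44.3 to 246 CPM against 1.96 to 10.5 CPM. PDS1, which encodes 4-hydroxyphenylpyruvate dioxygenase and also feeds tocopherol synthesis, was at 46.4 to 234 CPM against 5.82 to 18.9 CPM. HGO, homogentisate dioxygenase, was at 29.3 to 102 CPM against 7.18 to 21.3 CPM. Arginine, ornithine, methionine, threonine, cysteine and uracil had a member each in the higher group, namely the arginase ARGAH1, the ornithine aminotransferase DELTA-OAT, the methionine gamma-lyase MGL, the threonine aldolase THA1, the persulfide dioxygenase ETHE1 and PYD4. DELTA-OAT was at 107 to 285 CPM against 9.58 to 31.1 CPM. The 3 members that passed the test downward with overlap were TAT3, ARGAH2 and GAD2. ARGAH1 and ARGAH2, both arginases, thus had opposite signs, with ARGAH2 at a log2 fold change of -2.28. So did the tyrosine aminotransferases TAT3 and TAT7, at log2 fold changes of -3.47 and 4.25.

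Photorespiration, the salvage of phosphoglycolate made by Rubisco in light, was the list with the highest share on the lower side. Of 20 members tested, 13 were lower without overlap (65.0%, against 10.7% of all genes) and 1 was higher (5%, against 8.45%). The median log2 fold change was -1.32. GLDP1, the P protein of glycine decarboxylase, was at 11.3 to 101 CPM against 978 to 2421 CPM. HPR, the peroxisomal hydroxypyruvate reductase, was at 15.1, 11.3, 44.2 and 18.2 CPM against 183 to 311 CPM. PGLP1, the phosphatase that opens the pathway, was at 2.06 to 4.75 CPM against 33.8 to 52.1 CPM. GOX3, annotated as a glycolate oxidase like GOX1, went the other way, at 27.1, 41.5, 14.1 and 19.5 CPM in darkness and 0.185 to 1.63 CPM in light. GOX1 was at 72.5 to 287 CPM against 576 to 1247 CPM, so members of the oxidase family changed in opposite directions.

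**Figure D2:**
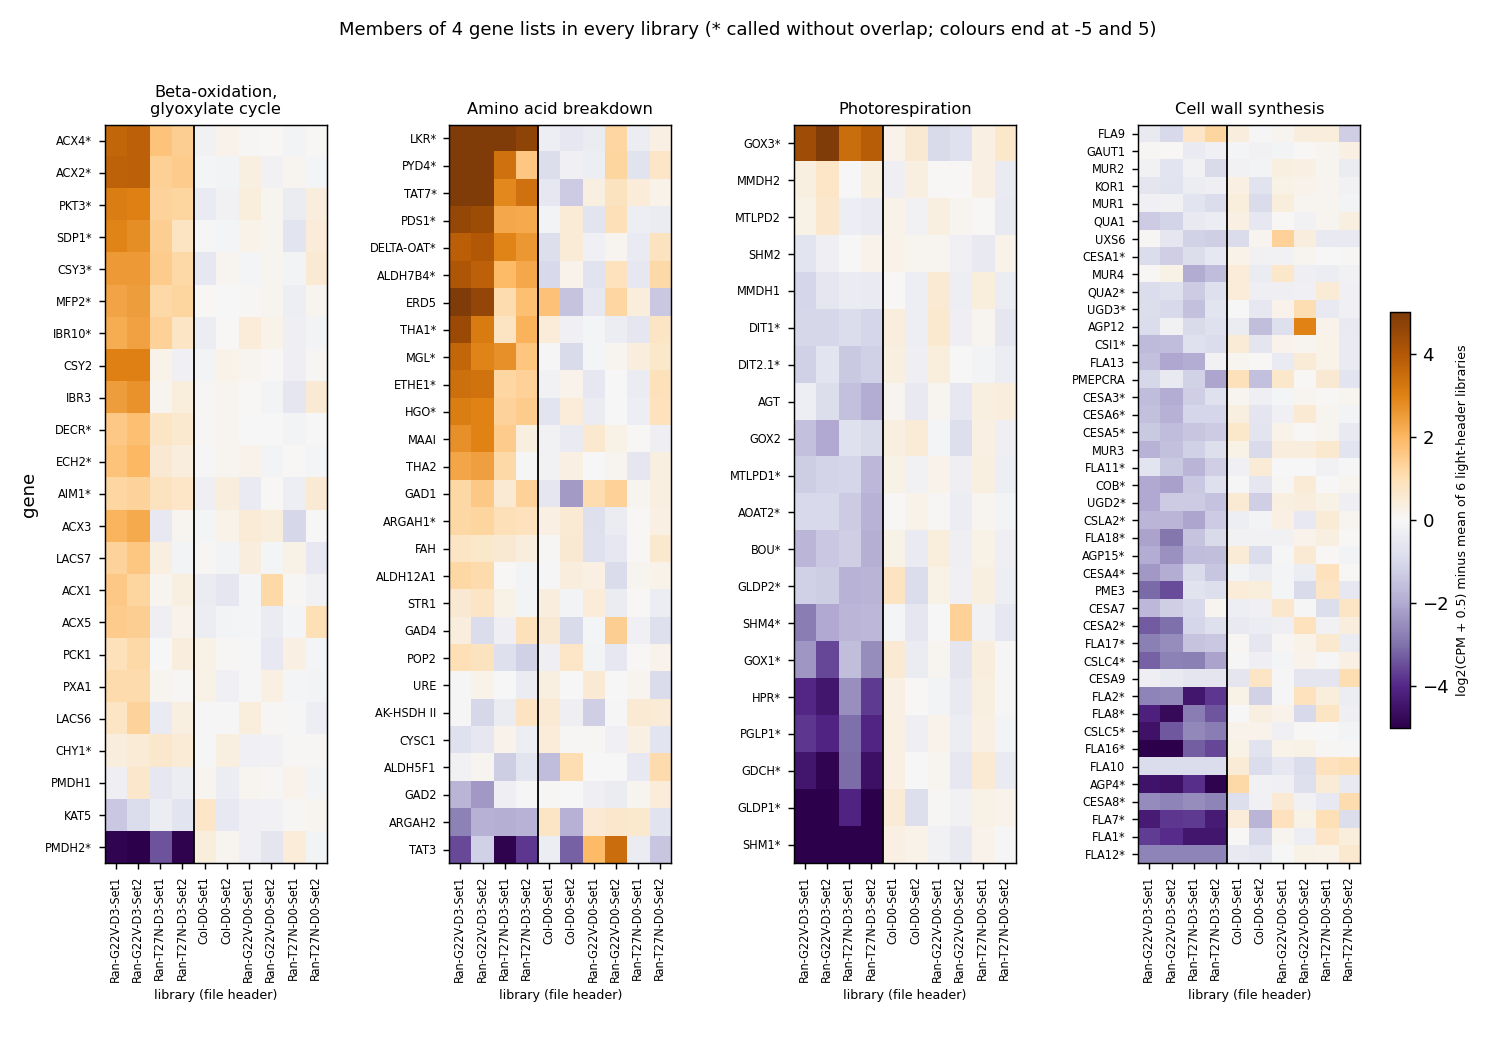
Members of 4 gene lists (rows) in the 4 dark libraries (left of the line) and the 6 light libraries (right), coloured by log2(CPM + 0.5) minus the mean of the light libraries. Beta-oxidation and amino acid breakdown lean to orange (higher) in the dark columns, with 11 of 23 and 11 of 27 members called. Photorespiration and cell wall synthesis are mostly purple (lower), with 13 of 20 and 26 of 42. For beta-oxidation the shift is mainly in the Ran-G22V columns. The Ran-T27N dark medians of 5.54 and 5.56 lie within the light range of 5.51 to 5.64.

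The starch genes that fell included some that build the polymer and some that degrade it. In the list of starch and sucrose metabolism 16 of 40 members were lower without overlap (40%, against 10.7% of all genes). Another 4 were higher (10%, against 8.45%), and the median log2 fold change was -1.66. APL1, the large subunit of ADP-glucose pyrophosphorylase that starts synthesis, was at 0.183, 0.670, 2.31 and 2.71 CPM in darkness and 26.6 to 49.0 CPM in light. SEX4, a phosphatase of night-time starch breakdown, was at 2.37 to 16.7 CPM against 47.1 to 147 CPM, and DPE2, which handles the maltose released, at 2.49 to 6.80 CPM against 21.6 to 80.3 CPM.

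The 4 higher genes of that list were SUS3, BAM9, AMY1 and AMY2. SUS3, a sucrose synthase known from drying seeds, was at 190, 250, 143 and 115 CPM against 4.90 to 9.87 CPM (edgeR's log2 fold change 4.71 ± 0.25 SE, with adjusted p 1.27e-05). BAM9, a beta-amylase-like protein, was at 18.01 to 125 CPM against 4.04 to 10.4 CPM. AMY1, an alpha-amylase that is secreted in other settings, was at 24.5 to 169 CPM against 0 to 15.8 CPM. Dark libraries were thus below the light ones in APL1, SEX4 and DPE2 and above them in these 4 genes. AMY1 overlaps AT4G24990 on the same strand, BAM9 overlaps AT5G18680 on the opposite strand, and APL1 is crossed by 2 genes on the opposite strand.

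Of 39 members of the SnRK1 and TOR list, 7 were higher (17.9%, against 8.45% of all genes) and 1 was lower (2.56%, against 10.7%). The median log2 fold change was 0.33, with 0.73 in Ran-G22V and -0.05 in Ran-T27N. BZIP1, a transcription factor of the starvation response, was at 364.5 and 214 CPM in Ran-G22V and at 27.8 and 21.5 CPM in Ran-T27N, against 2.65 to 7.96 CPM. GBF5 and BZIP63, bZIP factors of the same network, were higher as well, at 639 to 963 CPM against 168 to 398 CPM and at 7.85 to 29.9 CPM against 0.421 to 3.20 CPM. The SnRK1 subunit gene AKINBETA1 was at 20.9 to 52.1 CPM against 5.44 to 16.5 CPM. TPS1, which makes the sugar signal trehalose 6-phosphate, was the 1 lower member at 9.24 to 18.2 CPM against 26.97 to 52.6 CPM. TPS6 and TPS9, of the class without that known activity, were higher.

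Nitrogen uptake and assimilation had members in both directions. Of 26 members 5 were higher (19.2%, against 8.45% of all genes) and 6 lower (23.1%, against 10.7%). GLU1, the ferredoxin-dependent glutamate synthase of leaves in light, was at 5.48, 2.11, 7.06 and 3.62 CPM against 101 to 182 CPM. Its counterpart GLT1, which uses NADH, was higher at 65.5 to 81.8 CPM against 26.8 to 47.6 CPM. The nitrate reductase gene NIA1 was at 74.3, 202, 27.7 and 43.7 CPM against 1.96 to 12.5 CPM, while NIR1, the nitrite reductase that follows it, was lower at 11.8 to 30.1 CPM against 32.4 to 381 CPM. Ammonium transporters AMT1;1, AMT1;2 and AMT2 were all lower, and the nitrate transporters NRT1.2 and NRT1.8 were higher. GLU1 overlaps AT5G04150 and AMT1;1 overlaps AT4G13505 on the opposite strand, and GLT1 overlaps AT5G53470 on the same strand.

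In the sulphate list 2 of 28 members were higher (7.14%, below the 8.45% of all genes) and 6 lower (21.4%, against 10.7%). SERAT2;1, a serine acetyltransferase that supplies the carbon skeleton of cysteine, was at 535, 612, 309 and 242 CPM against 9.08 to 47.1 CPM. GSH1, the first enzyme of glutathione synthesis, was at 202 to 420 CPM against 104 to 179 CPM. Enzymes that activate sulphate were lower, with APK2 at 4.66 to 12.1 CPM against 33.0 to 85.0 CPM and the ATP sulfurylases APS1 and APS3 at 117 to 180 CPM against 275 to 692 CPM and at 2.35 to 4.55 CPM against 10.2 to 42.6 CPM. SERAT2;1 and APS3 each overlap a gene on the opposite strand.

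Cell wall synthesis had no member on the higher side, against 8.45% of all genes. Of 42 genes tested, 26 were lower without overlap (61.9%, against 10.7% of all genes), and the median log2 fold change was -1.6. They included the cellulose synthase genes CESA1, CESA2, CESA3, CESA5 and CESA6 of growing walls and CESA4 and CESA8 of thickened walls. CESA6 was at 95.0 to 163 CPM against 227 to 502 CPM, and CESA8 at no more than 0.0660 CPM against 1.35 to 6.34 CPM. CSLC4, which builds the xyloglucan backbone, was at 3.01, 4.45, 4.29 and 6.95 CPM against 26.8 to 39.4 CPM.

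Fasciclin-like arabinogalactan proteins sit at the cell surface, and 9 of their genes were among the 26, namely FLA1, FLA2, FLA7, FLA8, FLA11, FLA12, FLA16, FLA17 and FLA18. FLA16 was at 0.411, 0.718, 3.56 and 2.76 CPM in darkness and at 23.9 to 46.4 CPM in light (edgeR's log2 fold change -4.88 ± 0.30 SE, with adjusted p 1.79e-05). FLA12 had 0 counts in every dark library and 1.68 to 4.37 CPM in light. FLA9 did not pass the test. Of 49 genes of the cell cycle and replication, 2 were higher and 5 lower, shares of 4.08% and 10.2%, which are below those of all genes. The list's median log2 level was low on both sides, yet separated them, at 0.39 to 0.8 in darkness and 0.92 to 1.73 in light. Its median log2 fold change was -0.69, with -1.27 in Ran-G22V and -0.69 in Ran-T27N. The CDK inhibitor KRP1 was higher at 30.0 to 68.0 CPM against 13.7 to 27.7 CPM. The other higher gene was the cyclin gene CYCD3;2, at 9.05 to 11.2 CPM against 1.62 to 6.71 CPM. It lost its call in several fits without a library and overlaps AT5G67265 on the opposite strand. Among tubulins and actins 2 of 35 were higher (5.71%, against 8.45% of all genes) and 5 lower (14.3%, against 10.7%). TUA3, TUB3, TUB7, TUB8 and the microtubule bundler MAP65-1 were the lower ones.

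Among markers of leaf cell types, 7 of 21 vascular ones were lower (33.3%, against 10.7% of all genes) and 0 higher (against 8.45%). Of 9 epidermal markers 5 were lower (55.6%, against 10.7%). Guard cell markers, with 1 of 11 lower (9.09%), were near the share of all genes. Of 10 trichome markers 2 were lower (20%, against 10.7% of all genes). SUC2, the sucrose loader of phloem companion cells, was at 27.9, 30.2, 19.3 and 31.1 CPM against 172 to 366 CPM, and PP2-A1, a phloem protein, at 40.9 to 51.7 CPM against 147 to 208 CPM. The summed level of the vascular markers was 151 to 220 CPM in darkness and 457 to 754 CPM in light, and that of the epidermal markers 206 to 1295 CPM against 1146 to 2822 CPM. In whole leaves, fewer cells of a type and less RNA per cell cannot be told apart, and the part of cell types in the other results was not tested. SHR and PHT1;1 alone passed the test, with overlap, among the 8 tested markers of seeds, pollen, flowers and roots, whose sums were 9.30 to 26.4 CPM against 13.4 to 20.6 CPM, and 24 others were below the filter. Levels of these markers were thus low on both sides.

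**Figure D3:**
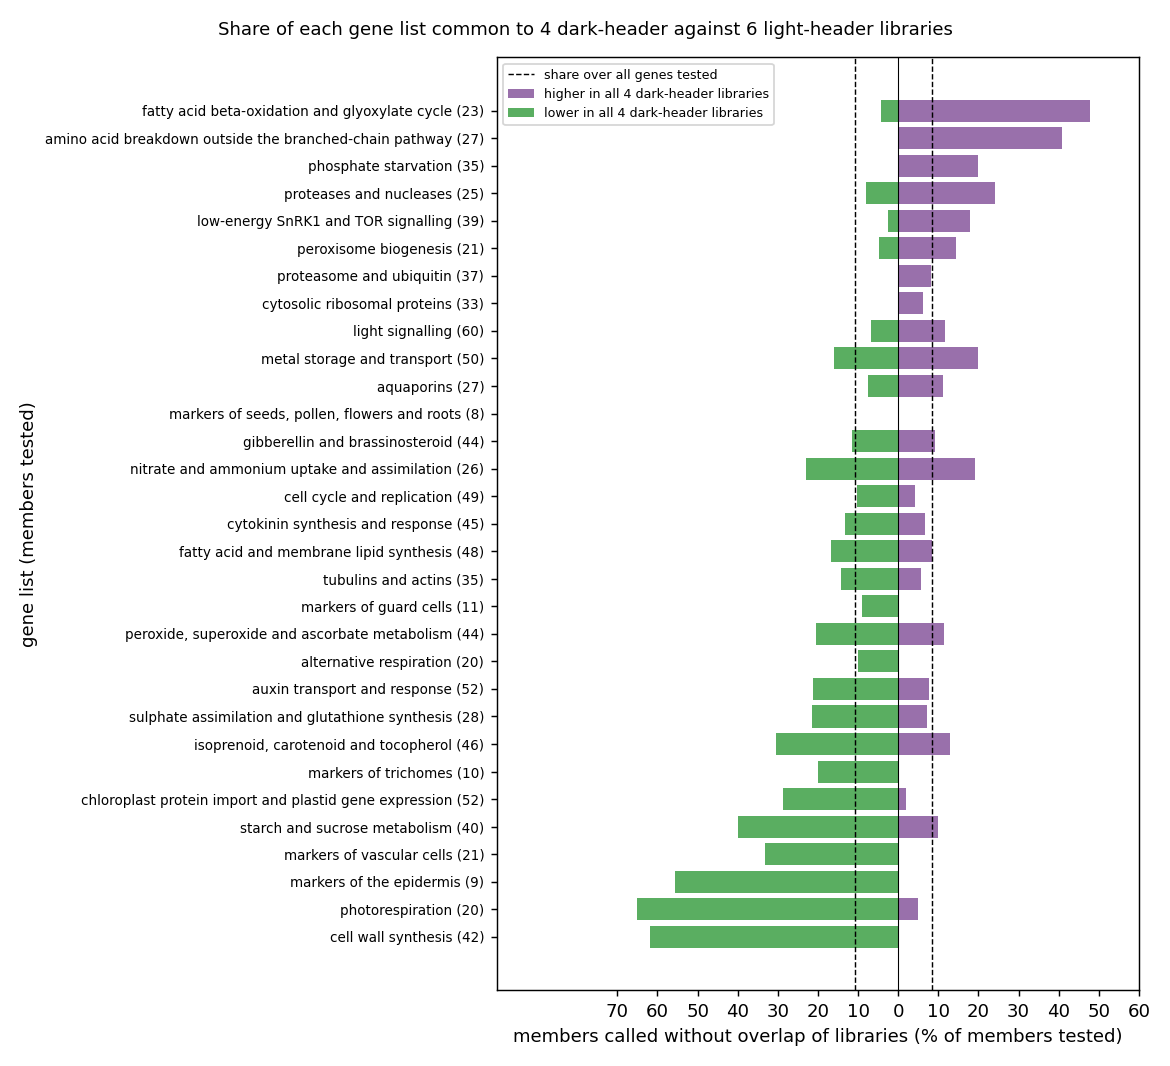
Share of the tested members of each of the 31 gene lists that were called without overlap, to the right for higher and to the left for lower in the dark libraries, in percent. Dashed lines mark the shares over all genes, 8.45% and 10.7%, and beta-oxidation at 47.8% and photorespiration at 65.0% are the longest bars on their sides.

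Hormone lists had calls in both directions. Of 52 auxin genes 4 were higher (7.69%, below the 8.45% of all genes) and 11 lower (21.2%, against 10.7%). The lower ones included the repressors IAA8 and IAA9 and the carriers PIN4, PIN7, LAX1 and LAX2, with IAA9 at 35.4, 28.7, 49.4 and 32.6 CPM against 95.4 to 117 CPM. DFL1 and WES1, which encode GH3 enzymes that conjugate auxin to amino acids, were higher at 17.8 to 80.6 CPM against 0.224 to 12.98 CPM and at 44.9 to 472 CPM against 1.57 to 12.6 CPM. AUX1 and PILS2 were the other higher members, and PILS2 lost its call without Ran-G22V-D3 Set2 and without Ran-T27N-D3 Set1.

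In the cytokinin list the early response regulators ARR4, ARR5 and ARR7 were lower, with ARR4 at 3.74, 5.07, 2.05 and 4.38 CPM against 17.3 to 47.0 CPM. ARR2, a response regulator of the transcription factor type that is known to act in leaf lifespan, was higher at 38.8, 38.6, 19.8 and 26.7 CPM against 4.36 to 8.83 CPM. List totals were 3 higher (6.67%, below the 8.45% of all genes) and 6 lower (13.3%, against 10.7%) of 45. Among 44 gibberellin and brassinosteroid genes 4 were higher (9.09%) and 5 lower (11.4%), near the 8.45% and 10.7% of all genes. GASA1, a small secreted peptide that responds to gibberellin, was at 3899, 5905, 4725 and 7122 CPM against 56.5 to 483 CPM, and IBH1, a repressor of cell elongation, at 19.0 to 38.7 CPM against 3.19 to 7.06 CPM. DWF1 and BEE2 of the brassinosteroid pathway were lower. Dark libraries were thus alike in GASA1 in both lines.

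Carotenoid and tocopherol genes also moved in both directions. Of 46 isoprenoid members 14 were lower (30.4%, against 10.7% of all genes) and 6 higher (13%, against 8.45%). The lower ones held much of the plastid pathway from DXR and MCT to PSY, PDS3, LUT1, LUT2 and LUT5, with DXR at 18.7 to 26.2 CPM against 40.5 to 80.1 CPM. BETA-OHASE 1, annotated as a beta-hydroxylase, was higher, at 20.6 to 190 CPM against 3.37 to 10.8 CPM. CCD7 and CCD8, which cleave carotenoids in the synthesis of strigolactones, were higher too. CCD8 was at 239, 279, 86.3 and 126 CPM against 4.30 to 8.42 CPM (edgeR's log2 fold change 4.84 ± 0.24 SE, with adjusted p 1.09e-05), and CCD7 at 6.66 to 29.6 CPM against at most 0.474 CPM. CCD8 overlaps AT4G32820 on the opposite strand. The tocopherol genes VTE2 and VTE1 moved in opposite directions, VTE2 up at 77.2 to 183 CPM against 16.6 to 32.1 CPM and VTE1 down at 3.01 to 3.54 CPM against 10.9 to 19.1 CPM.

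Of 52 genes of plastid protein import and gene expression 15 were lower without overlap (28.8%, against 10.7% of all genes) and 11 more with overlap. The 1 higher member was TOC120 (1.92%, against 8.45%). CSP41A and CSP41B, which bind and stabilise plastid RNA, were at 3.35 to 11.7 CPM against 110 to 143 CPM and at 3.97 to 13.5 CPM against 151 to 285 CPM. Both overlap a neighbour on the opposite strand. In membrane lipids the plastid desaturases FAD5, FAD6, FAD7 and FAD8 were lower, with FAD7 at 5.47 to 12.7 CPM against 78.5 to 539 CPM. PES1 and PES2, which store the phytol and fatty acids released from thylakoids as phytyl esters, were higher, PES1 at 426, 737, 119 and 149 CPM against 7.67 to 29.2 CPM. That list had 4 higher (8.33%, at the 8.45% of all genes) and 8 lower (16.7%, against 10.7%) of 48 members.

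Light signalling genes included factors that are known to promote the response to light, and some of their transcripts were higher in the dark libraries. HY5, whose protein is degraded in darkness in seedlings, was at 43.5, 51.3, 26.99 and 33.2 CPM against 2.41 to 6.12 CPM (edgeR's log2 fold change 3.41 ± 0.27 SE, with adjusted p 5.25e-05). HFR1, which represses shade growth, was at 17.8, 16.4, 30.2 and 35.1 CPM against 0 to 1.51 CPM. RPT2, a phototropism gene, was at 271, 263, 281 and 226 CPM against 25.8 to 90.2 CPM. The HY5 relative HYH was lower, at 0.238 to 1.095 CPM against 1.12 to 11.8 CPM, and so were PIF7, PKS1 and PAR1. In all, 7 of 60 members were higher (11.7%) and 4 lower (6.67%), which is near the shares of all genes. HY5 was somewhat higher in the Ran-G22V dark pair and HFR1 in the Ran-T27N pair, and the change did not differ between lines at the threshold for either (adjusted p = 0.991 and 1 in edgeR's test).

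Metals, phosphate and redox genes had members with clear gaps. NRAMP3, which moves iron and manganese out of the vacuole, was at 105, 101, 47.0 and 35.3 CPM against 3.51 to 8.13 CPM, and the metallothioneins MT1A, MT1B and MT1C, which are close copies whose reads may be shared, were higher too. NAS3, a nicotianamine synthase, was at 233 to 488 CPM against 3.31 to 63.3 CPM, whereas its relative NAS4 was at most 0.132 CPM against 1.38 to 11.3 CPM. FRO6 and FRO7, ferric reductases of leaves and chloroplasts, were lower. Of 50 metal genes 10 were higher (20%, against 8.45% of all genes) and 8 lower (16.0%, against 10.7%). Of 35 phosphate starvation genes 7 were higher (20%, against 8.45% of all genes) and 0 lower (against 10.7%). PS3, a glycerol-3-phosphate transporter, was at 176, 196, 185 and 170 CPM against 2.80 to 27.1 CPM, and PAP26, the main acid phosphatase of senescing leaves, at 99.9 to 329 CPM against 49.5 to 78.6 CPM.

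Ascorbate synthesis was lower at VTC1, VTC2, VTC4 and VTC5, with VTC5 at 6.71 to 11.0 CPM against 34.1 to 120 CPM. MIOX2 and MIOX4, inositol oxygenases, were higher. MIOX4 was at 132 and 64.7 CPM in the Ran-G22V dark libraries but at 0.198 and 1.38 CPM in the Ran-T27N ones, against at most 0.0560 CPM in light. The lowest of these dark values rests on few reads. The peroxiredoxin gene PRXQ was at 1.29 to 3.76 CPM against 49.8 to 103 CPM. The list had 5 higher (11.4%, against 8.45% of all genes) and 9 lower (20.5%, against 10.7%) of 44 members. In aquaporins 3 of 27 were higher (11.1%) and 2 lower (7.41%), near the shares of all genes, with the tonoplast gene TIP2 (AT3G26520) at 3601, 2869, 1763 and 1450 CPM against 323 to 739 CPM. Alternative respiration had 0 higher of 20 (against 8.45% of all genes). Its 2 lower members (10%, against 10.7%) were the inner dehydrogenase NDA1 and the carrier UCP5.

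Few genes of the proteasome and ubiquitin list were called. Of 37 proteasome and ubiquitin genes 3 were higher (8.11%), which is at the 8.45% of all genes, and 0 lower (against 10.7%). UBQ10 and UBQ3, polyubiquitin genes, were at 7000 to 11480 CPM against 2200 to 5915 CPM and at 622 to 961 CPM against 127 to 424 CPM. Polyubiquitin genes share much sequence, and the sources do not say how such reads were split. The third, RPT6A, had a log2 fold change of 0.58 and lost its call without any 1 of the dark libraries. Proteases and nucleases had 6 higher (24.0%, against 8.45% of all genes) and 2 lower (8%, against 10.7%) of 25. RD21, a vacuolar cysteine protease, was at 1006 to 3841 CPM against 254 to 408 CPM, and XCP2 and DEG1 were lower. Of 33 cytosolic ribosomal protein genes 2 were higher (6.06%, below the 8.45% of all genes) and 0 lower (against 10.7%). The median log2 fold change of this list was -0.34 in Ran-G22V and 1.1 in Ran-T27N. RAN2 was higher in darkness at 159 to 254 CPM against 51.2 to 153 CPM, and RANGAP1, which activates Ran's GTPase, lower at 9.38 to 28.5 CPM against 76.4 to 112 CPM. RANGAP1 overlaps the called gene CSP41A on the opposite strand. Among other genes named, PDS1, FLA16, IAA9, DXR, PES2, TUB7, TPS1, PIF7 and PP2-A1 overlap a gene on the opposite strand and FBA5, CA1 and DWF1 one on the same strand, so their reads may be mixed as well.

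Protein families named by the annotation were scanned for shares above the rest, with no test since they were picked by their values. There were 266 families with at least 10 tested genes. Only those with at least 5 calls on a side were ranked. The highest share on the higher side was in the transmembrane amino acid transporters (7 of 18, 38.9%, against 8.45% of all genes). Its members with the smallest adjusted p were AT3G30390, at 668 CPM on average in darkness against 167 CPM, and AT1G08230, at 103 CPM against 24.7 CPM. Purple acid phosphatases (5 of 15), a ubiquitin-like family that holds the autophagy genes ATG8B and ATG8C (8 of 25), CBL-interacting protein kinases (6 of 19), the MtN21 transporters that include UMAMIT genes (11 of 35) and ubiquitin-conjugating enzymes (7 of 26) followed. Their shares ran from 26.9% to 33.3%, against the same 8.45%. CIPK15, of the calcium-linked kinases, averaged 80.6 CPM in darkness against 11.3 CPM. UBC32, an enzyme of protein quality control in the endoplasmic reticulum, averaged 174 CPM against 42.5 CPM. On the lower side stood early nodulin-like proteins (6 of 11), expansins (7 of 13), plastid fibrillins (5 of 10), ribosomal proteins of a family that is mostly plastid (6 of 15), acyltransferases of the HXXXD type (15 of 38) and Toll-interleukin receptor proteins (5 of 13). Shares in these ran from 38.5% to 54.5%, against 10.7% of all genes. ENODL2 averaged 60.2 CPM in darkness against 476 CPM, and CER26, an acyltransferase of wax synthesis, 41.2 CPM against 190 CPM.

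The common genes were also read in each line. Over all genes, darkness gave 3782 calls in Ran-G22V (17.6% of genes tested) and 2324 in Ran-T27N (10.8%). Of the 1814 common higher genes, 1062 were called in Ran-G22V, 635 in Ran-T27N and 504 in both, with median log2 fold changes of 1.77 and 1.37. Of the 2291 common lower genes, 1412 and 1183 were called and 887 in both, with medians of -2.26 and -2.07. A further 621 higher and 583 lower genes were called in neither line alone. The Ran-G22V change was the larger one in 1208 of the higher and 1262 of the lower genes. The difference between lines was tested for every gene and passed in 45 (0.21%), of which 8 were common higher and 2 common lower genes. That count depended strongly on the setting, with 719 genes in DESeq2, 568 with no filter on low counts and 1 to 135 without 1 library. A line's own control is part of both the common and the line's comparison, so these counts are not independent of each other.

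**Figure D4:**
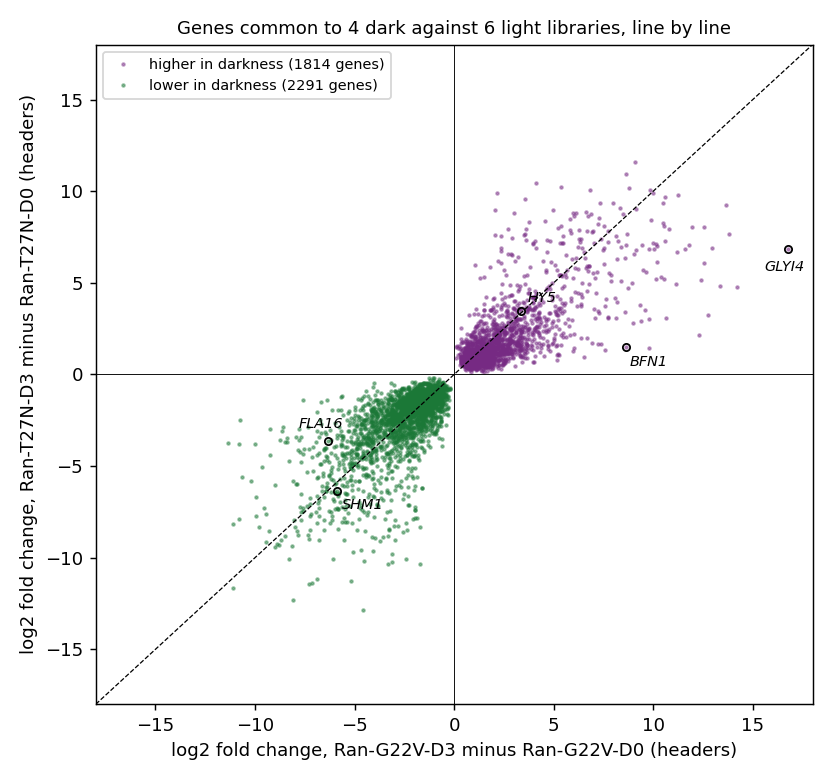
Log2 fold change in darkness of the 1814 common higher (purple) and 2291 common lower (green) genes, in Ran-G22V on the horizontal and Ran-T27N on the vertical axis. The dashed line marks equal change, and GLYI4 and BFN1 lie below it with a called difference between lines.

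Promoters of genes that moved together were searched for short motifs of factors tied to light, sugar or stress. The window was the 250 bases before the annotated gene start in TAIR10.1, which could be read for 1664 of the common higher genes, 2126 of the common lower genes and 19596 tested genes in all, on either strand. The G-box CACGTG, bound by bHLH and bZIP factors, was in 7.5% of higher, 8.7% of lower and 7.3% of all promoters. GATAAG, the I-box of light-regulated genes, was in 14.2%, 12.2% and 12.3%, and TATCCA, the sugar starvation motif of rice amylase genes, in 17.1%, 14.1% and 14.3%. TGGGCC, part of a motif of growth genes, was in 13.8%, 12% and 16.3%. TTGACC, the W-box core of WRKY factors, was in 12%, 12.1% and 12.3%, ACTCAT in 11.2%, 12.7% and 11.9%, and AAACCCTA in 2.9%, 2.4% and 3.6%. The windows below had to hold a G-box, in capitals, and no other gene. Those of the genes with the widest gaps on each side are shown. They were read from RefSeq's TAIR10.1 assembly, 5′ to 3′ on the gene's strand.
GLYI7: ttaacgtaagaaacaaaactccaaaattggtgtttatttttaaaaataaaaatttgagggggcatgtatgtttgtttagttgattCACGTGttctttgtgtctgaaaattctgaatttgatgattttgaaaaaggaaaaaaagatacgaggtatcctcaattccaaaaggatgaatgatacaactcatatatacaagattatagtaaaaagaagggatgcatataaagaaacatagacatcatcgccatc
AT4G01410: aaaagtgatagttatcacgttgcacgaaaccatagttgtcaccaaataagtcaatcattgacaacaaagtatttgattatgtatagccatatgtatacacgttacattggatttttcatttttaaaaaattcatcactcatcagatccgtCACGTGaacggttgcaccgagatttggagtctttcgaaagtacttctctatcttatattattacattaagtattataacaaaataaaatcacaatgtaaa
PnsB5: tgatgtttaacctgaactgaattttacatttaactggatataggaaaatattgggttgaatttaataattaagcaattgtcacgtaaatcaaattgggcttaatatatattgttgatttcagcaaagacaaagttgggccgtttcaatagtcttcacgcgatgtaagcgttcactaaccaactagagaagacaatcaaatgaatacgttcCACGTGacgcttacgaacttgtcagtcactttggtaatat
GLDP1: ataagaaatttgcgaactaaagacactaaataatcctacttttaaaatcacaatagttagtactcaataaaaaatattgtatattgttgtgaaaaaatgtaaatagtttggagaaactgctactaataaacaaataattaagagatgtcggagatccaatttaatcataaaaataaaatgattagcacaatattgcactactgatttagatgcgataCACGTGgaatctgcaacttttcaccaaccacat
GLYI7 (chr1:30150647-30150896, plus strand) has its G-box 165 bases before the gene start and AT4G01410 (chr4:577778-578027, plus strand) 100 bases before it. In PnsB5 (chr5:17581276-17581525, minus strand) and GLDP1 (chr4:15931423-15931672, minus strand) the G-box starts 40 and 33 bases before the gene start. Mean levels in dark and light libraries were 676 and 1.202 CPM for GLYI7 and 47.3 and 2.69 CPM for AT4G01410. They were 0.456 and 26.3 CPM for PnsB5 and 50.8 and 1771 CPM for GLDP1. The genes were picked for the motif on each side, so its presence in both directions was set by that choice.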

How the data were processed

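RNA-seq libraries from leaves were prepared with a Lexogen QuantSeq kit, per the labels. Reads of such kits cover only a short part of a transcript, so levels are not compared between genes by length. For each library the authors deposited 1 file of raw counts by gene, made with Bowtie2, edgeR and the TAIR10 genome per the submitters' processing notes; no versions or strand setting are named. Of 33028 rows, 32577 (98.6%) were paired with a locus of the RefSeq TAIR10.1 gene table and 429 share a name. Rows were kept by filterByExpr (21475 genes) and scaled by TMM. All 10 libraries entered a quasi-likelihood model with 5 group means in edgeR 4.0.16 (R 4.3.3), and the mean of the 2 dark groups was compared with that of the 3 light groups, with Benjamini-Hochberg adjustment. The scripts were tested on simulated data. Each SE was taken as the log2 fold change over the square root of F. Intervals of counting error are not given, since replicates set the error.

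The members, the 31 gene lists and the tests were chosen with earlier results of these data known. Of 1252 list entries, 7 were dropped as names of other genes, 85 matched no single row and 85 were under the filter. Named genes are the 12 per direction with the widest gap, at a mean of at least 10 CPM, up to 3 members per list and direction by adjusted p, and check genes; the other list members and families named were chosen after their values were seen. A gap adds 0.5 CPM to both sides. Pairing of Set numbers was checked, and DESeq2 1.42.0 and other settings were tried as alternatives.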

Additional observations from a re-analysis of the deposited data

Results flagged for a closer look

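The change in darkness differed between lines for 2 named genes in the test of the difference. For GLYI4 the log2 fold change was 9.93 larger in Ran-G22V than in Ran-T27N (16.78 against 6.85, adjusted p = 0.0174 in edgeR), but the light libraries of Ran-G22V held 0 and 1 counts, so the fitted size of its change there rests on a single read. For BFN1, a nuclease of dying cells, the difference was 7.14 (8.61 against 1.48, adjusted p = 0.0341 in edgeR). BFN1 was at 269 and 202 CPM in the Ran-G22V dark libraries and at 2.64 and 2.14 CPM in the Ran-T27N ones. The highest light library was at 1.38 CPM, so the Ran-T27N pair stood only narrowly above it. In Ran-T27N alone the change was not called (adjusted p = 0.212 in edgeR's test).

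Single libraries stood far from the others of their side in 8 of the 151 named genes, each with 2 sides tested. Chance flags about 1 in 20 such groups. Among dark libraries, Ran-G22V-D3 Set2 was low in NDA1 at 0.191 CPM (others 1.28 to 1.52) and in APS3 at 2.35 CPM (others 4.24 to 4.55), and Ran-T27N-D3 Set2 was high in PIF7 at 2.76 CPM (others 0.858 to 1.01). Among light libraries, Ran-G22V-D0 Set2 was high in ENT3 at 27.6 CPM (others 5.54 to 10.1), in PES2 at 63.9 CPM (others 21.7 to 31.3) and in CCD7 at 0.474 CPM (others 0 to 0.0499). The Col libraries were low in FLA16 for Set2, at 23.9 CPM (others 36.9 to 46.4), and in TIC62 for Set1, at 11.8 CPM (others 18.6 to 20.8). None of these libraries crossed over to the other side.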

How the results depend on the processing

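DESeq2 shared 98.9% of the 4105 common calls, RLE scaling 98.9%, the 2-group fit 97.7%, no filter 94.7%, the stricter filter 95%, leaving out ribosomal RNA and organelle rows 96.1% and leaving out Col 94.2%. The main exceptions were the test against a fold of 2, with 1141 higher and 1739 lower genes (861 and 1446 without overlap), and the titles, with 18 and 59 (13 and 15). Without 1 library, counts ran from 2084 to 3350 higher, 1463 to 1955 higher without overlap, 2746 to 3952 lower and 2113 to 2591 lower without overlap. The 2084 came without Ran-G22V-D3 Set1. In all, 3118 of the common genes (76%) were called in each of the 10 fits. No overlap is easier to reach with fewer libraries.

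Within lines the counts moved more. Without 1 library, Ran-G22V gave 1641 to 4658, Ran-T27N 486 to 3191 and the difference between lines 1 to 135 genes. DESeq2 and no filter gave 4146 and 3709 genes in Ran-T27N and 719 and 568 for the difference, which had 109 without Col. The cause was not tested. Of 146 named genes with a call, RPT6A, PEX13, PILS2, CRF6, CYCD3;2 and RPS10B lost it in at least 1 fit without a library, and 32 against a fold of 2. List counts moved by over 1.5 times in 29 of 62 against a fold of 2, 9 without Col, 7 without Col-D0 Set2 and 7 without Ran-T27N-D3 Set1, and in 0 to 6 under each other setting but titles. Outside titles, higher beta-oxidation genes ran from 7 to 11, higher amino acid breakdown genes from 10 to 13, lower photorespiration genes from 8 to 15, lower cell wall genes from 17 to 30 and lower starch genes from 14 to 18. Titles gave 77 genes in all and moved 50 list counts.

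The labels do not say what a Set number shares. Correlations across genes of Set1 minus Set2 were 0.124, 0.188 and 0.31 among the 3 light groups and -0.008 to 0.067 in the other 7 pairs of groups, so not every pair passed 0.1. With the Set number as a replicate block the calls were 3375 higher and 3761 lower, 98.7% of the common calls were shared, and the difference between lines had 83 genes. The log2 fold change of LHCB1.1, which split by Set in light, was -1.61 with the block and -3.39 without it, and was called in neither. LHCB1.1 did pass the test in DESeq2 (-3.38), with no filter (-3.38) and without the Col libraries (-3.66). RAN1 passed it in DESeq2, at a log2 fold change of 0.62, but not in the main fit.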
